A study of Mus musculus with 23 samples.

Results

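Ketohexokinase (Khk) starts the breakdown of fructose, and phosphoenolpyruvate carboxykinase 1 (Pck1), fructose-bisphosphatase 1 (Fbp1) and the catalytic subunit of glucose-6-phosphatase (G6pc) carry the steps by which gluconeogenesis bypasses glycolysis. These 4 genes were chosen by name, as the array spots whose gene name is one of them, and they are 4 of the 21476 genes measured above background. They were read by 5 of 55681 probes, with 2 probes for Khk and 1 for each of the others. All 5 probes were well above background on all 23 arrays, and none was saturated or marked as an outlier on any array.

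The study profiled the small intestine of adult male C57BL/6J mice with 2-colour arrays, 1 array per mouse. The HF-Q group (11 mice) ate a high-fat diet with 0.33% quercetin by weight, a plant flavonol, and the HF group (12 mice) ate the same diet without it. Both diets lasted 12 weeks after 3 weeks on a normal-fat diet, all mice were fasted for 2 to 4 hours before sampling, and the labels name no genetic change in either group. No group stayed on the normal-fat diet in the data used here, so nothing below describes the effect of the high-fat diet itself.

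In the enterocyte, fructose enters through the transporter GLUT5 (Slc2a5) and is phosphorylated by Khk. Further down the route, glyceraldehyde is phosphorylated by triokinase (Tkfc). The triose phosphates can be oxidised, turned into lipid, or carried back to glucose by Fbp1 and G6pc. Pck1 makes phosphoenolpyruvate from oxaloacetate and so feeds carbon from lactate and amino acids into the same route. Glucose-6-phosphatase works with the transporter Slc37a4, which carries glucose-6-phosphate into the endoplasmic reticulum. Fructose uptake and breakdown are known to be strongest in the upper small intestine, and fasting, glucagon and glucocorticoids are known to raise Pck1 and G6pc in the liver.

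The 2 Khk probes are shown because they read different places of the same gene. The downstream probe lies at chr5:31233555-31233614 (mm9) and is assigned to the RefSeq transcript of Khk, and its last 30 bases hold the polyadenylation signal letters in capitals. The upstream probe lies 4450 bases away at chr5:31229105-31229164 (mm9), is listed under Ensembl transcripts with no RefSeq accession, and has no marked letters. Which splice form of Khk it reads is not given in the files.
Khk, downstream probe, last 30 bases: agatacctggagcaAATAAAtcttcccctg
Khk, upstream probe: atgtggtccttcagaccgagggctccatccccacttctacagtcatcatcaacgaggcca
The remaining probes lie at chr13:62966175-62966234 for Fbp1, chr11:101238947-101239006 for G6pc and chr2:172984307-172984366 for Pck1 (all mm9). Where the probes lie among exons was not analysed here.

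The promoters are shown because some of these genes varied together over mice and others did not. Each window runs from 250 bases before the annotated start to 50 after it, on the gene's own strand, in RefSeq's GRCm38.p6. The windows are chr5:30921309-30921608 (+) for Khk, chr13:62888233-62888532 (-) for Fbp1, chr11:101367466-101367765 (+) for G6pc and chr2:173152823-173153122 (+) for Pck1. Capitals mark matches on either strand to CACGTG (the E-box), TGACGTC (a 7-letter stretch of the cyclic AMP response element), GTAAACA (FOXO), AGGTCA (a nuclear receptor half-site), AGATAA (for factors of the GATA family), TTTAT (CDX) and GTTAAT (an HNF1 half-site), and no matches overlapped.
Khk promoter: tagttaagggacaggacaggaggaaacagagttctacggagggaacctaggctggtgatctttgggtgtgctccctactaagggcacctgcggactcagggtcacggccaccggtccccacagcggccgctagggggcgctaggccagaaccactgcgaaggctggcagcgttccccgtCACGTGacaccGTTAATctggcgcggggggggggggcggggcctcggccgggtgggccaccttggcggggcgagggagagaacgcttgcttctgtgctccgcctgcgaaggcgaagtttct
Fbp1 promoter: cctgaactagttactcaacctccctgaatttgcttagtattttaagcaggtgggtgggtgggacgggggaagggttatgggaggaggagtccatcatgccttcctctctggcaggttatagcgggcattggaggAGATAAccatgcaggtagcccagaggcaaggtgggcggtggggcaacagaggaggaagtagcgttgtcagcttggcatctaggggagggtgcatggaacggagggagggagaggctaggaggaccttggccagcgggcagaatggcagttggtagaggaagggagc
G6pc promoter: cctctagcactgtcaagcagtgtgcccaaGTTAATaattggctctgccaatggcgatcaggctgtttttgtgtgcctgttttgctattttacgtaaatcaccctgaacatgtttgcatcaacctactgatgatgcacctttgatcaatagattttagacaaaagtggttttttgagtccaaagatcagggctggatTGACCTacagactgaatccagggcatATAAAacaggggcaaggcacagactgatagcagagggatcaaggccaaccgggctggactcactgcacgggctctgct
Pck1 promoter: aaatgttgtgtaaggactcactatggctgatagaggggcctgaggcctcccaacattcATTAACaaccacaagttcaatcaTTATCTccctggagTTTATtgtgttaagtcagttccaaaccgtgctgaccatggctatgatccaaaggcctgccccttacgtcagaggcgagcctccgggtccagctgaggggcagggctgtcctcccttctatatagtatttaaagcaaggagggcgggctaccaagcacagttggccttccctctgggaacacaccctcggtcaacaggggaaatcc
The Khk window held an E-box that begins at -71 and an HNF1 half-site that begins at -60, counted from the annotated start. Among all 32851 promoter windows, 7.15% held the E-box letters and 7.10% the HNF1 half-site. The HNF1 half-site was also in the windows of G6pc and Pck1, and the GATA letters, which 11.2% of all windows hold, were in those of Fbp1 and Pck1. G6pc and Pck1 both held the CDX letters, as 40.0% of all windows do, and only the G6pc window of these 4 held the nuclear receptor half-site, which 16.3% of all windows hold. The CDX match of G6pc begins at -28 on the opposite strand and lies within TATAAAA, the letters of a TATA box. The letters searched for the cyclic AMP element and for FOXO were in none of the 4 windows, against 3.21% and 3.65% of all windows, which describes these letters in this window and not the binding of any factor. The shorter half-site of the cyclic AMP element, CGTCA, was not searched. The Pck1 window holds it within TTACGTCA, and the Khk window holds it at its E-box. Khk and Fbp1, whose levels followed each other most closely, shared none of the 7 motifs here. Whether letters in these windows bear on co-variation was not tested.

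Whether quercetin changed these transcripts was asked first. None of the 4 genes passed the test between HF-Q and HF, and the percentage of all genes that passed was 0 (limma, Benjamini-Hochberg adjustment over 21476 genes, adjusted p under 0.05). At an unadjusted p under 0.05, 452 genes were higher in HF-Q and 520 lower (2.42%), together 4.53% of those tested, and none of the 4 was among them. Values are log2 ratios of each mouse to a pool of all mice, so levels of different genes cannot be set against each other.

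Khk had log2 ratios of -0.12 to 0.66 (median 0.33) in HF-Q mice and 0.07 to 0.87 (median 0.31) in HF mice at its downstream probe. The groups overlapped almost entirely, with 7 of the 11 HF-Q values over the median of HF. The lowest mouse was HF-Q and the highest 3 were HF. The mean was 0.32 ± 0.19 in HF-Q and 0.41 ± 0.26 in HF (SD, n = 11 and 12), a difference of -0.09 ± 0.09 (SE) with a 95% interval of -0.28 to 0.10 (limma adjusted p = 0.952).

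The upstream Khk probe gave -0.25 to 0.30 (median -0.14) in HF-Q mice and -0.51 to 0.41 (median -0.22) in HF mice. Here too the groups overlapped, and the difference had the opposite sign, 0.08 ± 0.10 with a 95% interval of -0.12 to 0.28 (limma adjusted p = 0.958). Over the 23 mice the log2 ratios of the 2 Khk probes correlated at r = 0.68. The direction of the Khk difference therefore depended on the probe, and both intervals held 0. The upstream probe was far dimmer, with a median Cy5 signal over the arrays of 834 against 212647 at the downstream probe.

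Pck1, at the entry of gluconeogenesis, ran from -1.89 to 0.98 (median -0.41) in HF-Q mice and from -1.16 to 0.48 (median -0.14) in HF mice. The HF-Q range enclosed the whole HF range: 3 HF-Q mice (numbers 1, 5 and 9) lay below every HF mouse, at -1.89, -1.63 and -1.42, and 2 HF-Q mice (numbers 3 and 6) lay above every HF mouse. The means were -0.43 ± 0.92 in HF-Q and -0.20 ± 0.51 in HF, a difference of -0.23 ± 0.28 (95% interval -0.81 to 0.36, limma adjusted p = 0.956).

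Fbp1, which removes a phosphate from fructose-1,6-bisphosphate, had log2 ratios of -0.51 to 0.16 (median -0.25) in HF-Q mice and of -0.36 to 0.96 (median -0.11) in HF mice. In HF, 3 mice (numbers 3, 1 and 4) stood above all others at 0.96, 0.93 and 0.55, and the other HF mice lay within the HF-Q range. The mean was -0.21 ± 0.24 in HF-Q and 0.07 ± 0.48 in HF, a difference of -0.28 ± 0.15 (95% interval -0.59 to 0.03), with an unadjusted p of 0.0708 and a limma adjusted p of 0.951. Without those 3 HF mice the difference was -0.036.

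G6pc, the last step to free glucose, had log2 ratios of -1.43 to 1.57 (median -0.29) in HF-Q mice and of -1.28 to 0.83 (median -0.27) in HF mice. The medians lay almost together, and the highest and the lowest mouse were both HF-Q. The mean was -0.14 ± 0.80 in HF-Q and -0.35 ± 0.68 in HF, a difference of 0.21 ± 0.29 (95% interval -0.38 to 0.80, limma adjusted p = 0.959).

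**Figure D1:**
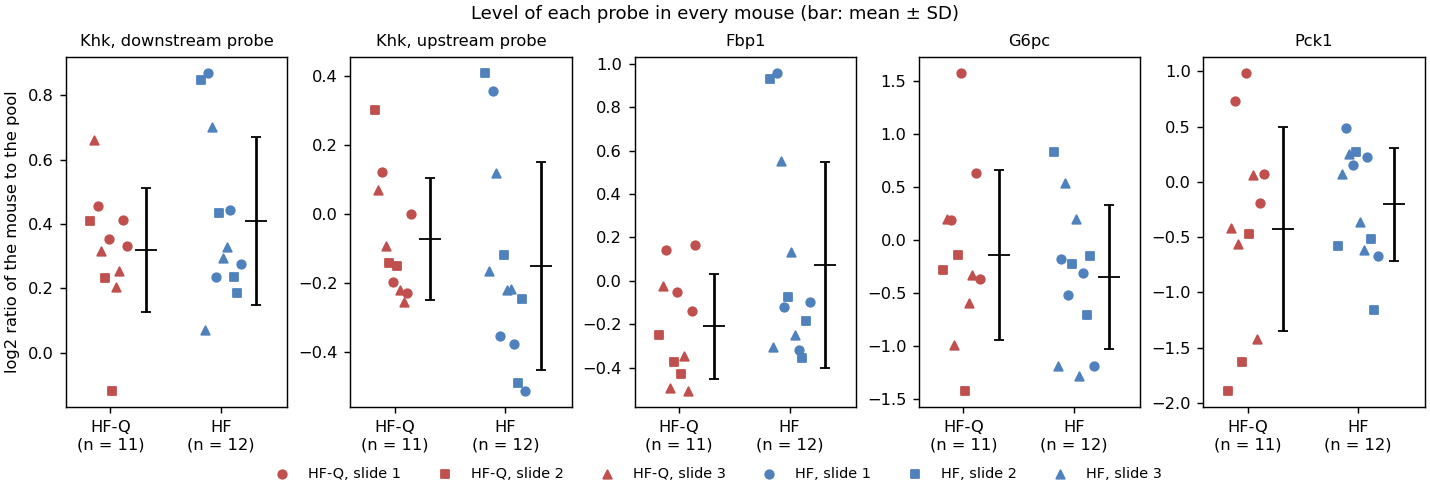
Log2 ratio to the pool (vertical axis, a scale of its own in each panel) of the 5 probes in each HF-Q (left) and HF (right) mouse. Marker shapes give the slide, and bars the mean ± SD. The groups overlap at every probe, and the 3 highest Fbp1 values, 0.55 to 0.96, are all HF mice.

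The arrays lay on 3 slides, each with mice of both diets, and the diet difference of Pck1 and G6pc turned with the slide. Pck1 differed by 0.35, -0.83 and -0.42 between HF-Q and HF within slides 1, 2 and 3, and G6pc by 1.06, -0.55 and 0.0048. Slide accounted for 37.6% of the variance of Pck1 over mice, with slide means of 0.22, -0.85 and -0.37, against 3.58% to 6.11% for the other 3 genes. Fbp1 was lower in HF-Q within every slide, by -0.08, -0.43 and -0.37. The HF mice highest in Fbp1, HF 3, HF 1 and HF 4, lay on slides 1, 2 and 3. Each of these differences therefore includes 1 of them, and the shared sign is not independent of those mice. Khk differed by -0.07, -0.25 and 0.0097. With slide as a block the differences were -0.10 for Khk, -0.29 for Fbp1, 0.21 for G6pc and -0.27 for Pck1. Whether slide stands for a step of the array work or for how mice were placed on the slides was not tested.

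Mice differed widely from each other in these genes. The SD over the 23 mice was 0.73 for both G6pc and Pck1, larger than that of 99.1% of the genes tested. It was 0.40 for Fbp1, larger than that of 94.97% of genes, and 0.23 for Khk, larger than that of 78.2%. Diet accounted for 2.15% of the variance of G6pc, 2.51% of that of Pck1, 4.03% of that of Khk and 12.9% of that of Fbp1.

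The other genes of the same pathways, taken from lists chosen with earlier results of these data known, did not pass the test either: 0 of 8 genes of fructose uptake and breakdown, 0 of 6 of gluconeogenesis, 0 of 18 that supply it with substrate, 0 of 24 of glycolysis, 0 of 17 of glycogen and the pentose phosphate pathway, and 0 of 32 regulators (limma). A few genes stand in more than 1 list. Slc2a5, the fructose transporter, averaged -0.05 ± 0.37 in HF-Q and -0.08 ± 0.41 in HF, and Tkfc averaged 0.0078 ± 0.26 in HF-Q and 0.12 ± 0.30 in HF. The fructose list had 4 genes higher and 4 lower in HF-Q with a median difference of 0.0074, and the gluconeogenesis list 3 higher and 3 lower with a median of 0.0037, beside 10320 higher and 11156 lower with a median of -0.0038 over all genes. Substrate supply had 6 higher and 12 lower (median -0.03), and the regulators 8 higher and 24 lower (median -0.04).

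The 2 genes of each list with the smallest unadjusted p, among those reported, are as follows. In the fructose list they were Gpd1, the glycerol-3-phosphate dehydrogenase that turns triose phosphate towards lipid, with a difference of -0.11 ± 0.09, and Sord, which makes fructose from sorbitol, with -0.16 ± 0.14. In gluconeogenesis they were Slc37a4 (-0.17 ± 0.10, though its other probe had the opposite sign) and Fbp2, the muscle form of fructose-bisphosphatase (-0.04 ± 0.09). In substrate supply they were Gpd1 again and the aspartate-glutamate carrier Slc25a13 (0.07 ± 0.07). The glycogen branching enzyme Gbe1 differed by -0.16 ± 0.08 and the lactonase Pgls by 0.09 ± 0.04. The glycolytic Pgam1 and Pfkp differed by 0.11 ± 0.07 and 0.09 ± 0.06. Among the regulators, the stress transcription factor Atf4 differed by -0.16 ± 0.06, with 0 of the 11 quercetin-fed mice over the median of HF but the opposite sign at its other probe, and the CREB coactivator Crtc1 differed by -0.13 ± 0.06. All of these had a limma adjusted p of 0.951 or higher.

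**Figure D2:**
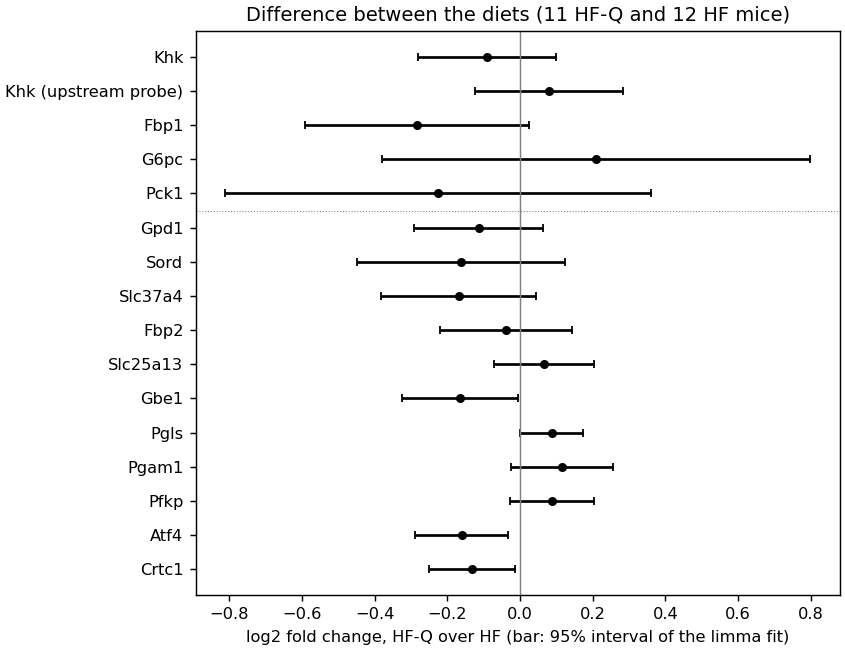
Log2 fold change of HF-Q over HF (horizontal axis) with its 95% interval for the 4 genes and the second Khk probe (above the dotted line) and for the 2 genes of each pathway list with the smallest unadjusted p (below it). All 5 intervals above the line include 0, and the list genes plotted lie between -0.17 (Slc37a4) and 0.11 (Pgam1).

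Co-variation of the 4 genes over the 23 mice was examined next, as 6 pairs with p-values adjusted over the 6 (Pearson and Spearman, 100000 permutations, two-sided). Khk and Fbp1 followed each other most closely, at r = 0.82 and rho = 0.69 (permutation adjusted p = 6e-05 and 0.0021). The first of these rests on the smallest p these permutations can give. The relation was present in both diets, at r = 0.58 in HF-Q and 0.91 in HF, and within slides 1, 2 and 3 at 0.84, 0.87 and 0.71. Without the 2 mice farthest from the median of Khk, HF 1 and HF 3, r was 0.63 (permutation adjusted p = 0.0175). Without HF 1, HF 3 and HF 4, the 3 mice highest in Fbp1, it was 0.47 and no longer passed (permutation adjusted p = 0.0520), so the strength of the relation rested in part on those mice.

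Khk and G6pc correlated at r = 0.57 and rho = 0.61 (permutation adjusted p = 0.0128 and 0.00723), with 0.59 in HF-Q and 0.68 in HF. Within slides 1, 2 and 3 the values were 0.10, 0.91 and 0.72, so the relation was not seen on slide 1, where the HF-Q mouse with the highest G6pc lay. Without HF 1 and HF 3, r was 0.58. Without HF-Q 7, the mouse lowest in both genes, it was 0.49 and missed the threshold (permutation adjusted p = 0.0575). Fbp1 and G6pc correlated at r = 0.50 and rho = 0.58 (permutation adjusted p = 0.0317 and 0.00772), at 0.55 in HF-Q and 0.70 in HF, and at -0.038, 0.82 and 0.76 within the slides. That call was lost without HF 1 (0.41), HF 4 (0.46), HF-Q 4 (0.47) or HF-Q 7 (0.47), and r was 0.53 without both HF 1 and HF 3.

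Pck1 was linked to the others more weakly. With Fbp1 it gave r = 0.38 (permutation adjusted p = 0.113) but rho = 0.51, which passed (permutation adjusted p = 0.0217), and r was 0.48 without HF 1 and HF 3 and 0.50 without HF 1 alone, which passed too (permutation adjusted p = 0.0411 and 0.0368). Within diets r was 0.61 in HF-Q and 0.25 in HF, and within slides 0.29, 0.23 and 0.56. With G6pc, Pck1 gave r = 0.29 and rho = 0.26 (permutation adjusted p = 0.206 and 0.229), falling to 0.10 without HF-Q 6 and HF-Q 7, with 0.44 in HF-Q and 0.12 in HF and 0.70, -0.12 and 0.15 within slides. With Khk it gave r = 0.24 and rho = 0.40 (permutation adjusted p = 0.266 and 0.0766), 0.22 without HF 1 and HF 3, 0.13 in HF-Q and 0.36 in HF, and 0.34, 0.07 and 0.16 within slides. Whether the r of one pair differs from that of another was not tested.

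**Figure D3:**
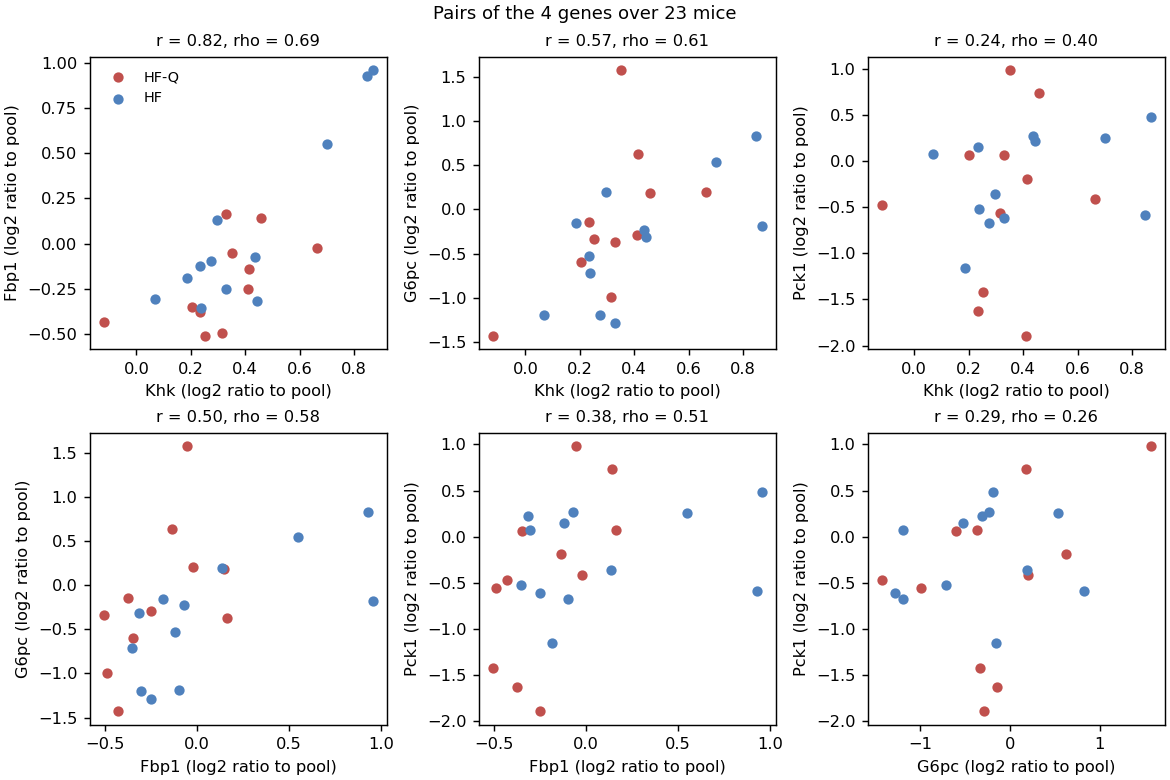
Log2 ratios to the pool of each pair of the 4 genes, 1 point per mouse, for HF-Q (red) and HF (blue), with Pearson's r and Spearman's rho over 23 mice above each panel. Khk and Fbp1 line up most closely (r = 0.82), with 3 HF mice at the upper right.

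The scaling of the arrays bears on these values. With arrays centred on their median in place of the within-array loess, all 6 pairs passed, and the pairs of Pck1 reached r = 0.54 with Khk, 0.55 with Fbp1 and 0.46 with G6pc.

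A large part of the transcriptome moved with Khk over these mice: 9.57% of 21475 genes had r of 0.5 or more with it and 13.2% had -0.5 or less. The corresponding shares were 8.56% and 9.42% for Fbp1, 4.04% and 3.06% for G6pc, and 3.02% and 1.95% for Pck1. Read against that, Fbp1 was 103rd among all genes in its likeness to Khk, and G6pc was 1396th. The r values of single genes that follow are descriptions over mice that share slides and a pool, and they carry no test.

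Among the 5 named genes most like Khk were Apoc2, an apolipoprotein of lipid particles (r = 0.91), Igsf23 (0.89), Tkfc (0.89) and Gpt, an alanine aminotransferase (0.89). Tkfc, which acts further down the breakdown of fructose, gave 0.83, 0.97 and 0.83 with Khk within slides 1, 2 and 3. Slc2a5, the transporter that brings fructose into the cell, gave only 0.28, and from 0.79 on slide 2 to -0.54 on slide 3. Of the 8 other genes of the fructose list, 3 had r of 0.5 or more with Khk: Tkfc, Gpd1 (0.76) and Glyctk, the glycerate kinase (0.55). Of the 6 other gluconeogenesis genes 2 did, namely Slc37a4 (0.82) and the isomerase Gpi1 (0.80), and of the 24 glycolysis genes 10 did.

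The hexokinases ran against Khk. Hk1, which phosphorylates glucose in most tissues, had r = -0.83 with Khk, with -0.90, -0.92 and -0.69 within slides, and Hk2 had -0.57. They were the only ones of the 24 glycolysis genes at -0.5 or less. Pck2, the mitochondrial counterpart of Pck1, had -0.48 with Khk and -0.16 with Pck1. These genes, like the list genes named for their r in the next paragraphs, were picked after their values were seen.

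The genes most like Fbp1 were Acadvl, a dehydrogenase of mitochondrial beta-oxidation (r = 0.92), Mtarc1, a mitochondrial reductase (0.90), the fatty acid-binding protein Fabp1 (0.88), itself an enterocyte and proximal marker, Slc6a3, the dopamine transporter (0.88), and Dbi, which binds acyl-CoA (0.88). Slc37a4, the glucose-6-phosphate transporter, gave 0.88 with Fbp1 and 0.86, 0.92 and 0.90 within the slides. It gave 0.54 with G6pc, its partner in glucose release, and 0.64 with Pck1, and was the only other gluconeogenesis gene at 0.5 or more with Pck1.

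The genes most like G6pc were Slc16a6, of the monocarboxylate transporter family (r = 0.85), Tysnd1, a peroxisomal protease (0.85), the lipid droplet protein Cidec (0.83), also in the adipocyte list, Cpt2, which works in the import of fatty acids into mitochondria (0.81), and the sphingosine kinase Sphk2 (0.81). All 5 stayed at 0.67 or more within each slide. Among the pathway genes reported, the carrier Slc25a13 (0.71) was closest to G6pc.

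Pck1 had other neighbours. The genes most like it were Svip (r = 0.86), Tsc22d1 (0.85), the steroid reductase Srd5a1 (0.83), the peroxisomal thiolase Acaa1a (0.83) and Vwa1 (0.80). After diet and slide means were taken off, these were 0.76, 0.80, 0.75, 0.73 and 0.76, in that order. Within single slides they were less even, with 0.45 for Svip, 0.61 for Tsc22d1 and 0.57 for Acaa1a on slide 1, and 0.53 for Vwa1 on slide 2. Among the pathway genes reported, the closest were Sord (0.74), the fatty acid-sensing receptor Ppara (0.70), the insulin receptor Insr (0.66), the transcription factor Klf15 (0.64), Slc37a4 (0.64) and the glutamate dehydrogenase Glud1 (0.62). Pfkfb3, whose product makes the activator of glycolysis, ran against it at -0.69. Slide moved with Pck1 as described, and after diet and slide means were taken off these values were 0.65 for Sord, 0.59 for Ppara, 0.50 for Insr, 0.53 for Klf15, 0.50 for Slc37a4, 0.58 for Glud1 and -0.47 for Pfkfb3. Before that step Glud1 gave -0.30 with Khk, and Sord gave 0.18.

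**Figure D4:**
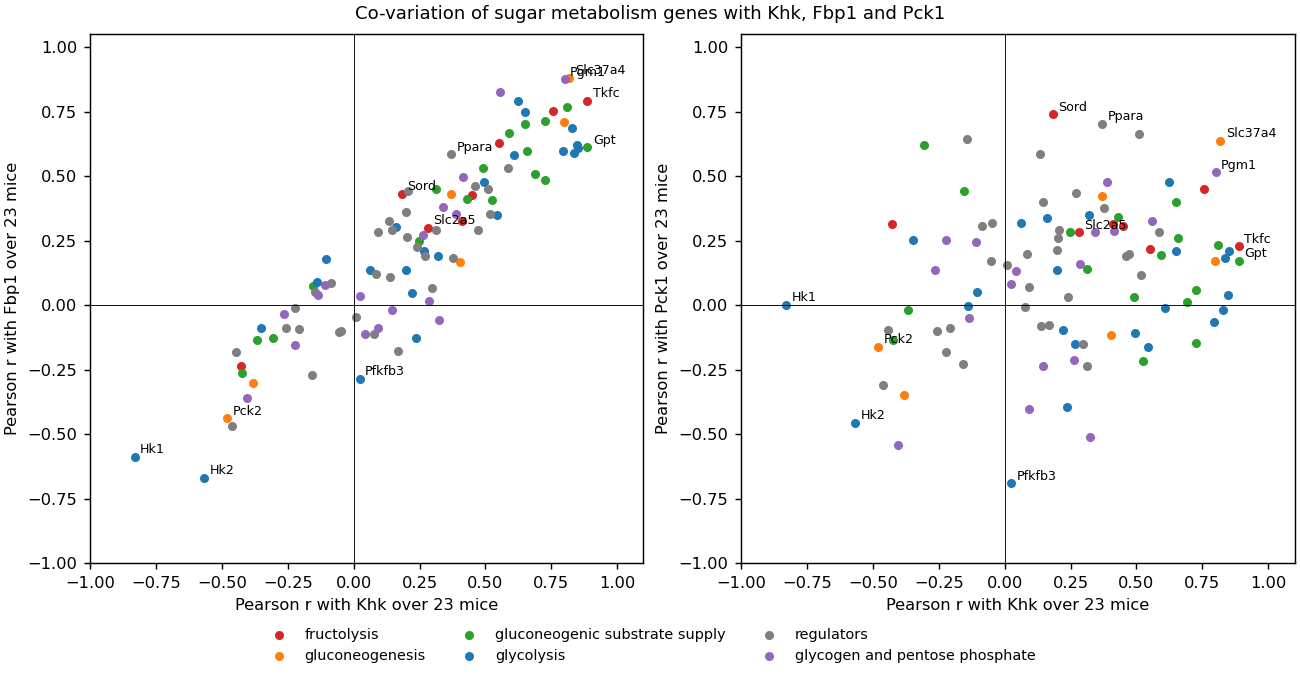
Pearson r of each gene of the 6 pathway lists with Khk (horizontal axis) against its r with Fbp1 (left) and with Pck1 (right), over 23 mice (fewer for 4 genes with missing spots). Points are coloured by list. Tkfc and Slc37a4 lie at high r with both Khk and Fbp1, while Sord lies high for Pck1 (0.74) and low for Khk (0.18).

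Markers of cell types and of intestinal regions moved with the same mice. All 12 enterocyte markers and all 10 markers of the proximal small intestine were above background on all 23 arrays. The proximal score, the mean log2 ratio of its 10 markers, ran from -0.19 to 0.23 (median 0.08) in HF-Q and from -0.22 to 0.64 (median 0.06) in HF, and its 3 highest mice were HF 3, HF 1 and HF 4, the same as for Fbp1. Over 23 mice the score correlated with Khk at r = 0.88 and rho = 0.74 and with Fbp1 at 0.81 and 0.53 (permutation adjusted p = 0.00052 for each r, over 52 pairs of gene and list). With G6pc r was 0.52 and missed the threshold (permutation adjusted p = 0.0617), while rho was 0.58 and passed it (permutation adjusted p = 0.0355), as did r after diet and slide means were taken off, 0.52 (permutation adjusted p = 0.04). The last of these p-values does not allow for the means taken off and is somewhat too small. With Pck1 r was 0.33 and rho 0.43, and neither passed (permutation adjusted p = 0.266 and 0.162). Within slides 1, 2 and 3 the values for Khk were 0.95, 0.95 and 0.74. For G6pc they were -0.00014, 0.90 and 0.74, so its relation with the score was not seen on slide 1. Without the 2 mice farthest from the median of the score, r was 0.78 for Khk and 0.53 for Fbp1.

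With the proximal score taken off by a linear fit, Khk and Fbp1 correlated at 0.38, Khk and G6pc at 0.29 and Fbp1 and G6pc at 0.17, none past the threshold (permutation adjusted p = 0.452, 0.525 and 0.578), and Khk and Pck1 at -0.11. The labels do not say from which stretch of the intestine each scraping came. In such bulk samples fewer cells of a type and less RNA per cell cannot be told apart.

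The enterocyte and proximal lists share the markers Lct and Fabp1, so their scores are not independent. Enterocyte markers ran with Khk and Fbp1, at r = 0.75 and 0.70 (permutation adjusted p = 0.00065 and 0.000832), and gave 0.49 with G6pc and 0.50 with Pck1, neither past the threshold. The rank correlations passed for both, at rho = 0.55 with G6pc and 0.57 with Pck1 (permutation adjusted p = 0.0413 and 0.0355), and after diet and slide means were taken off G6pc passed at 0.58 and Pck1 missed at 0.45 (permutation adjusted p = 0.0171 and 0.0853). Paneth cell markers, of the antimicrobial cells at the base of the crypt, ran against Khk at r = -0.79 and Fbp1 at -0.59 (permutation adjusted p = 0.00052 and 0.0235), though rho with Fbp1 was -0.45 and missed the threshold (permutation adjusted p = 0.142). With G6pc the Paneth markers gave r = -0.51, which missed (permutation adjusted p = 0.0617), and rho = -0.53, which passed (permutation adjusted p = 0.0495). The 8 crypt markers ran against Khk at -0.68 (permutation adjusted p = 0.00381). The enteroendocrine markers gave 0.61 with Fbp1 (permutation adjusted p = 0.0233). The remaining relations, with distal intestine, goblet, smooth muscle, acinar, hepatocyte, adipocyte, T cell and kidney tubule markers, did not pass for any of the 4 genes by r or by rho. After diet and slide means were taken off, 16 of the 52 relations passed, against 8 by r and 11 by rho without that step. Those that passed only then were Khk with distal markers (-0.58, permutation adjusted p = 0.0183), smooth muscle (-0.55, 0.0302) and kidney tubule (0.50, 0.0454), and Fbp1 with crypt (-0.64, 0.0065) and kidney tubule (0.51, 0.0408). These permutations did not allow for the diet and slide means taken off. All permutation p-values after that step are therefore somewhat too small, and calls near the threshold are uncertain. For the organs known for high levels of these enzymes, 2 of the 11 liver cell markers, Ahsg and Mup3, reached the background limit on 0 arrays and 6 reached it on all 23, and of the 6 kidney tubule markers Kap, Slc12a3 and Umod were on 0 arrays and 2 on all 23. The hepatocyte score ran from -0.17 to 0.27 in HF-Q and from -0.14 to 0.15 in HF. One extraction protocol speaks of liver, unlike all other labels.

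**Figure D5:**
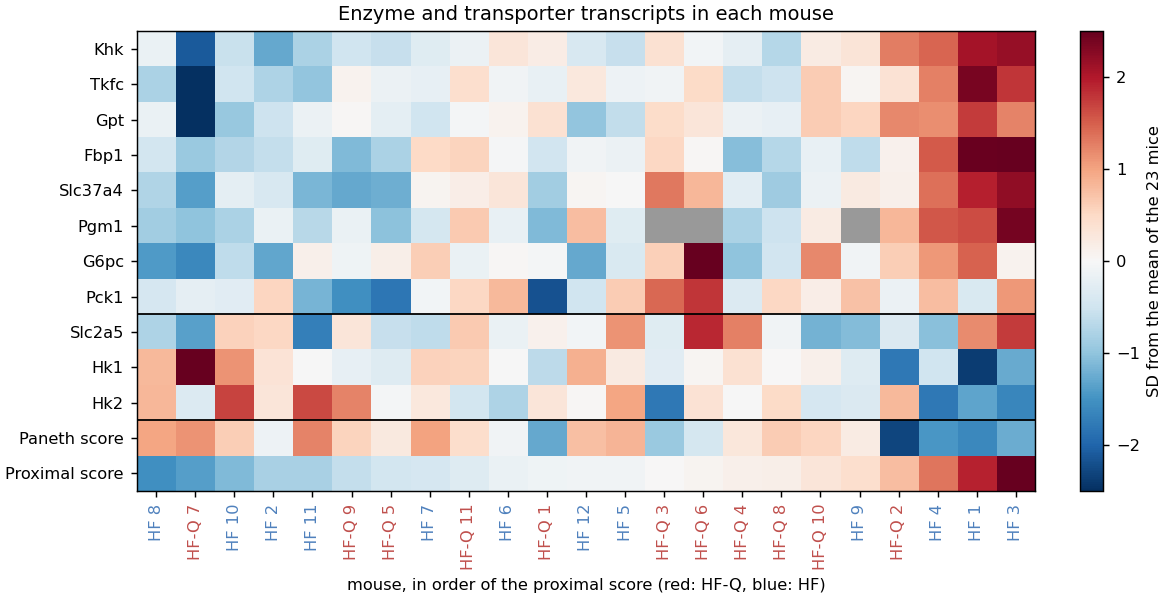
Log2 ratio of 11 genes and 2 marker scores (rows) in each mouse (columns, red names HF-Q and blue names HF), in SD from the mean of the 23 mice and ordered by the proximal score; grey cells have no value. The fructose genes Khk and Tkfc are highest in the 3 mice with the highest scores (HF 4, HF 1 and HF 3), and Hk1 is low in HF 1 and HF 3. The genes were picked after their values were seen.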

How the data were processed

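Small-intestinal scrapings of 23 mice were read on 2-colour arrays, Cy5 for the mouse and Cy3 for a pool of all mice, with 200 ng RNA each and no dye swap, per the labels' protocols. Spot and background intensity values were deposited as Agilent Feature Extraction 10.7.3.1 wrote them, per the submitters' processing notes. The same deposited files hold log10 ratios, and a deposited table holds the authors' processed log2 values that follow Cy5, with a common median of 9.11 whose normalization no source used here states. Both served as alternatives.

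Normexp background correction (offset 50) and within-array loess were run in limma 3.58.1 (R 4.3.3) with control spots at weight 0. Outlier spots (260 to 355 per array) were left out, and spots of a probe were averaged. A probe entered if 50% or more of either diet's arrays had it well above background in Cy5, and each gene was read by its brightest probe. Gene names came from a RefSeq table (GRCm38.p6), for 27235 probes by accession, 3581 by symbol and 565 by synonym. The diets were compared with lmFit and eBayes, two-sided and without covariates, at an adjusted p of 0.05. Signal over background and the number of arrays limit the precision. In data simulated for this comparison over 21476 genes, the fit recovered 90% of log2 changes of 0.5 and 97% of changes of 1. The changed genes were drawn at random and kept their own spread, so these shares do not describe the 4 genes. G6pc and Pck1 had an SD of 0.73, larger than that of 99.1% of genes, so changes in them were harder to recover. Correlations used Python 3.11.15 and 100000 permutations. The slide is the one numbered in the scanner records, and all arrays were scanned on the same day.

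The members and all gene lists were chosen with earlier results of these data known. The named genes are the 4 members, the 2 other genes of each of 6 pathway lists with the smallest unadjusted p, and the 5 named genes most like each member; others are said to be picked later. Some genes of these lists and of the genes most like a member are not reported here, and the lists are counted without them. The 13 marker lists were enterocyte, proximal and distal small intestine, goblet, Paneth, enteroendocrine, crypt, smooth muscle, pancreatic acinar, hepatocyte, adipocyte, T cell and kidney tubule. Each mouse is a separate animal per the labels, and 1 HF-Q mouse was left out by the authors.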

Additional observations from a re-analysis of the deposited data

How the results depend on the processing

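The diet difference passed the threshold for none of the 4 genes, and no gene of the array did, under any alternative: median centring, Cy5 alone, no background subtraction, the authors' log10 ratios and log2 table, no filter or detection on all arrays, slide as a block or within slides, array weights, the mean of a gene's probes, and leaving out each mouse. At an unadjusted p under 0.05 the count was 972. Signs did turn. The Khk difference was 0.021 with median centring, 0.0097 within slide 3 and 0.041 without the 3 mice highest in Fbp1, a setting added after seeing the data, as was the proximal score. Pck1 turned to 0.35 within slide 1 and G6pc to -0.55 within slide 2, and with median centring Gpd1 became 0.0052 and Fbp2 0.053. The causes were not tested. Leaving out each mouse in turn gave -0.13 to -0.05 for Khk, -0.32 to -0.20 for Fbp1, 0.04 to 0.34 for G6pc and -0.37 to -0.08 for Pck1.

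Of the pairs, Khk and Fbp1 kept its call without any single mouse (0.75 to 0.84), but not within slide 1 (0.84) or slide 3 (0.71), where fewer mice enter, nor after the proximal score (0.38) or without the 3 mice (0.47). Khk and G6pc ranged from 0.49 to 0.69 without each mouse, and missed at 0.10 and 0.72 within slides 1 and 3, 0.29 after the proximal score and 0.54 without the 3 mice. Fbp1 and G6pc ranged from 0.41 to 0.59, turned to -0.038 within slide 1, and missed at 0.76 within slide 3, 0.17 after the score and 0.48 without the 3 mice. The Pck1 pairs passed with median centring (Khk 0.54, Fbp1 0.55, G6pc 0.46), and those with Khk (0.45) and Fbp1 (0.57) passed after smooth muscle, acinar and distal scores were taken off. The permutations after that step did not allow for the scores taken off, so their p-values are somewhat too small. Without each mouse the Pck1 pairs with Khk, Fbp1 and G6pc ranged from 0.15 to 0.31, 0.30 to 0.50 and 0.11 to 0.34. Khk and Pck1 gave -0.11 after the proximal score, and G6pc and Pck1 gave -0.12 within slide 2.

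Same-numbered mice did not stand out as pairs in their transcript levels. They correlated at -0.34 to 0.39 over 11 pairs, 5 of them over 0.1, and 1 HF-Q mouse correlated best with its own number. Whether the numbers stand for a pairing that leaves no such trace was not tested. With the replicate block, which drops HF 12, the differences were -0.10 for Khk, -0.30 for Fbp1, 0.13 for G6pc and -0.27 for Pck1, and no gene was called.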

Other observations

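Genes of glycogen handling and of the pentose phosphate pathway, are given here as examples picked after their values were seen. Pgm1, the phosphoglucomutase that joins glycogen to glucose-6-phosphate, had r = 0.88 with Fbp1 over the 20 mice with a value, and Gbe1, the glycogen branching enzyme, had 0.83 over 23 mice, with 0.93, 0.94 and 0.60 within slides 1, 2 and 3. With Pck1 these were 0.52 for Pgm1, again over 20 mice, and 0.33 for Gbe1 over 23. The mice without a Pgm1 value include HF-Q 6 and HF-Q 3, the highest in Pck1 (0.98 and 0.74), so these r values cover different ranges of Pck1. The pentose phosphate dehydrogenases H6pd and Pgd ran against Pck1, at -0.54 and -0.51, and were negative within each of the 3 slides, from -0.70 to -0.43 for H6pd and from -0.71 to -0.38 for Pgd. Of the 17 genes of that list, Pgm1 and Gbe1 were the 2 with r of 0.5 or more with Fbp1 (11.8%, against 8.56% of all genes, a share near the background), and the list's median r with Fbp1 was 0.03. With Pck1, 1 had r of 0.5 or more and 2 had -0.5 or less, against 3.02% and 1.95% of all genes. Among the Khk relations, the upstream probe gave r = 0.68 with Fbp1, 0.37 with G6pc and 0.03 with Pck1.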
